A study of Mus musculus with 3 samples.

Results

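The cytosolic ribosome is built from a large and a small subunit, each a shell of proteins around ribosomal RNA. Nearly every one of its proteins comes from 1 functional gene in the mouse, and that gene often has many processed pseudogenes elsewhere in the genome. Ribosomal protein genes belong to the most strongly expressed genes of growing cells. Their messenger RNAs mostly begin with a C followed by a run of pyrimidines, the terminal oligopyrimidine (TOP) motif, through which growth signals such as mTOR control their translation. T cells enlarge their ribosome pool when they are activated and divide.

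The levels of these genes were read in 3 RNA-seq libraries of mouse T-helper 1 (Th1) primary cells of strain C57BL/6NJ, the interferon-gamma-producing fate of CD4 T cells. The libraries form 1 group, biological replicates 1, 2 and 3, and carry the same donor record. There is no control or second condition. The file headers describe sorted cells at 72 hours. Members were protein-coding genes chosen by symbol: Rpl or Rps followed by a number with an optional letter or X, together with Rplp0, Rplp1, Rplp2, Rpsa, Rpl22l1 and Rps27l. The rule left out ribosomal S6 kinase genes, pseudogenes and the tissue-restricted copies Rpl3l, Rpl10l and Rpl39l. It found 78 of the 50600 genes, 47 of the large and 31 of the small subunit. Of these, 17 (10 large, 7 small) share exon bases with a gene on the other strand and 61 do not. Since the rule reads symbols, the ribosomal proteins Rps3a1, Fau and Rack1 are not members.

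Total counts were 4482916, 266790 and 3733531 in replicates 1, 2 and 3. Replicate 2 was far shallower, and 18 members had fewer than 100 counts in it. Genes with an exon overlap on the opposite strand took 51.7%, 55.1% and 66.5% of all counts, so replicate 3 stands apart in that share. Counting used strand setting 1, per the file headers. Whether that setting matches the strand of the library was not tested, and every level below is that of the counted strand. All 7 Th1 markers had counts in every library: Cd4 averaged 174 ± 53.5 TPM, Ifng 604 ± 252 TPM and Tbx21, the Th1 master regulator, 70.5 ± 22.1 TPM (SD, n = 3 each), while Cd3e, which has an opposite-strand overlap, had 292, 1 and 157 counts. Of 14 markers of other cell types, 9 had no count in any library, among them Cd8a, Ms4a1, Lyz2 and S100a8. Cd79a, Cd8b1 and Ly6g averaged 8.23, 2.28 and 0.86 TPM. Csf1r and Alas2, both with opposite-strand overlap, had 872, 71 and 1347 counts and 18, 7 and 33 counts. Summed, the markers of other cell types had 98.1, 146 and 156 TPM in replicates 1, 2 and 3, while those of Th1 cells had 1608, 1395 and 758 TPM, and their part in the results was not tested. In bulk RNA, fewer cells of a type and less RNA per cell cannot be told apart.

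All 78 members reached a mean of at least 1 TPM, 76 reached 100 TPM and 24 reached 1000 TPM. TPM is here the count per exon base, scaled to the same sum in each library. The median member had a mean of 671 TPM, against 12.8 TPM over the 10408 protein-coding genes at 1 TPM or more, and lay above 99.1% of them. Of the 100 protein-coding genes with the highest mean TPM, 42 were members. Of all counts, members made up 6.51% in replicate 1, 6.34% in replicate 2 and 4.30% in replicate 3, a mean of 5.72% ± 1.23 (SD, n = 3). Among the counts of genes with no opposite-strand overlap alone, the 61 members without overlap made up 10.4%, 10.9% and 9.86%, a mean of 10.4% ± 0.53 (SD, n = 3). Replicate 3 was lowest on both measures, but by a smaller margin once overlapped genes were set aside.

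**Figure D1:**
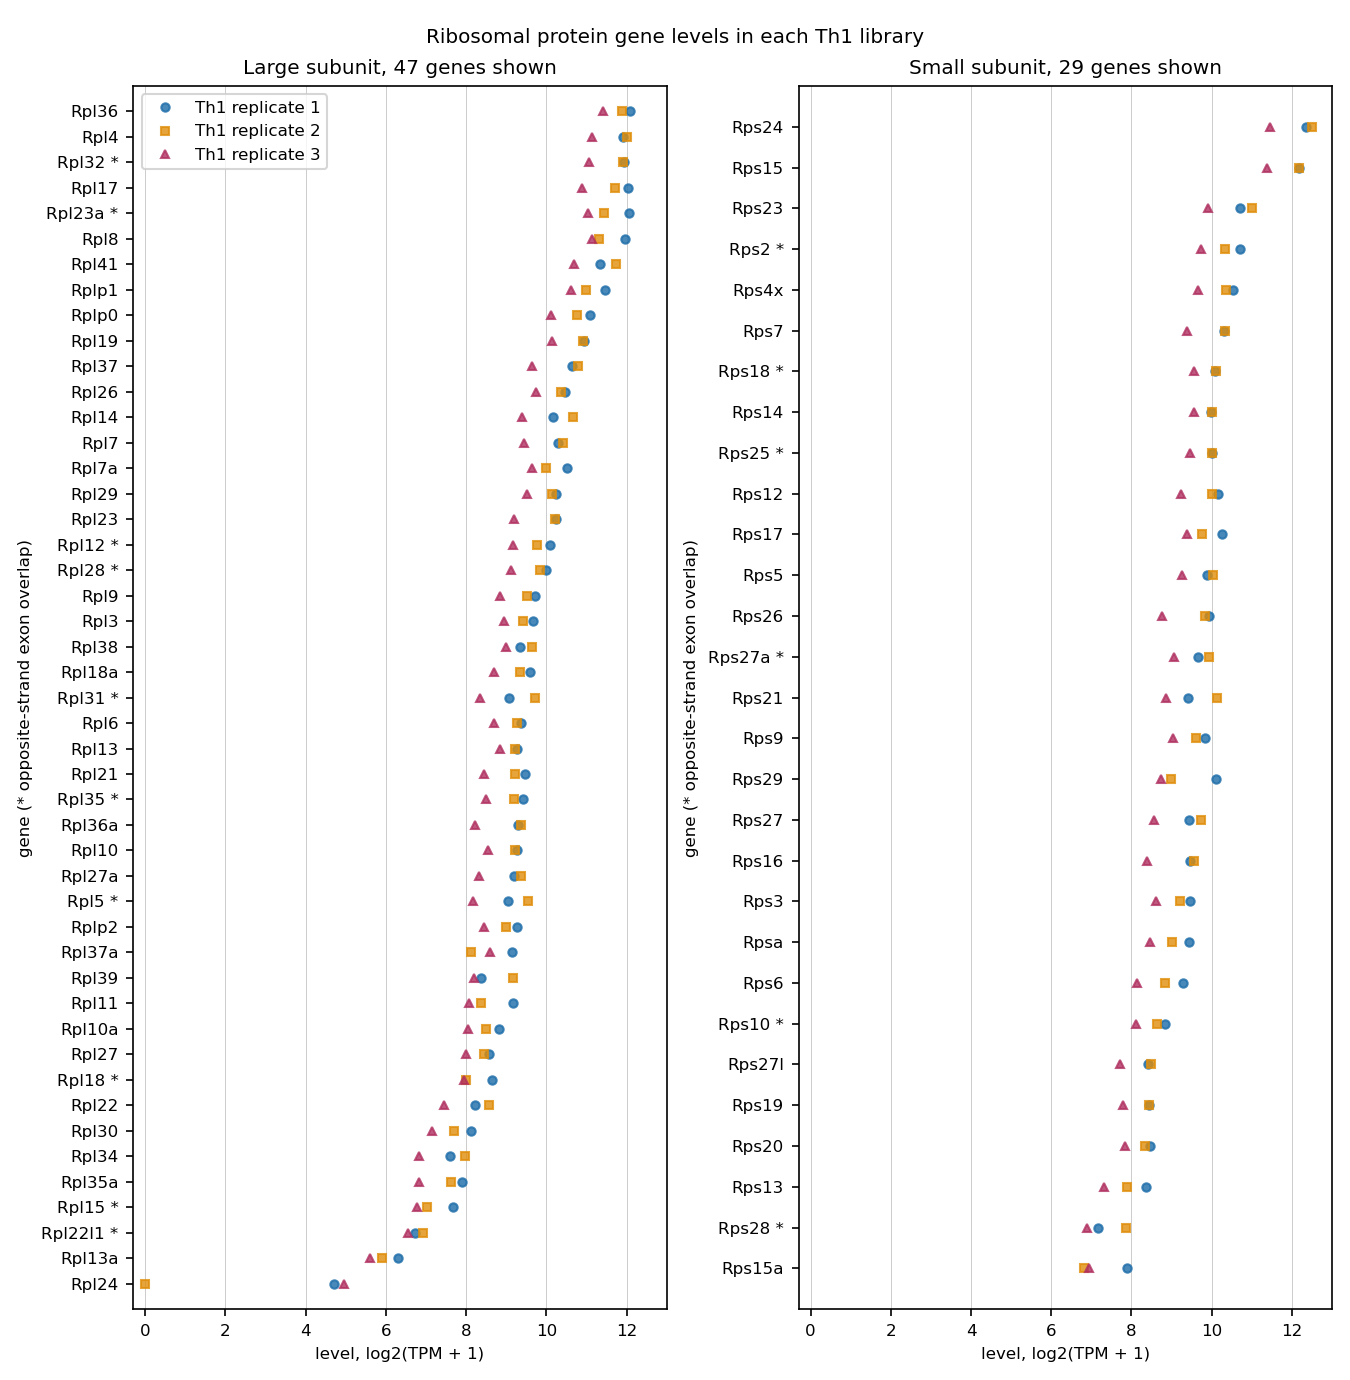
Level of 76 of the 78 members in each library as log2(TPM + 1), with the large subunit left and the small subunit right, genes ordered by mean TPM and an asterisk for opposite-strand exon overlap. Replicate 3 is the leftmost point for 73 of the 76 members drawn, and Rpl24 has 0 counts in replicate 2. Of protein-coding genes at 1 TPM or more, 51.9% were also lowest in replicate 3.

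Most ribosomal proteins stand once in each ribosome, while their mRNA levels here differed widely. The highest member exceeded the lowest, Rpl24, 251-fold, though the level of Rpl24 is uncertain for reasons given below. The quartiles at 401 and 1135 TPM lay 2.83-fold apart, against 7.05-fold for detected protein-coding genes. Members thus lay closer to each other than coding genes at large, with a long lower tail in the large subunit.

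In the small subunit, Rps24 led all members with 5255, 5749 and 2829 TPM in replicates 1, 2 and 3, a mean of 4611 ± 1563 TPM (SD, n = 3). RPS24 is one of the genes mutated in Diamond-Blackfan anaemia in humans. Rps15, a protein of the subunit head, had 4605, 4607 and 2642 TPM. Below them, Rps23, a protein of the decoding centre, had 1658, 2058 and 966 TPM and Rps2, near the entry of the mRNA channel, 1675, 1286 and 853 TPM. Replicate 3 was the lowest library for each of these 4. Rps24 and Rps15 stood more than 2-fold above Rps23 in every library, while Rps23 and Rps2 changed places between libraries.

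At the lower end of the small subunit, Rps15a had 235, 112 and 121 TPM in replicates 1, 2 and 3, with an exon length of 6270 bp, the longest of all members. Rps28 had 143, 233 and 118 TPM and Rps13 had 331, 236 and 158 TPM. The last of the 5 were Rps20 with 352, 322 and 229 TPM and Rps19 with 344, 344 and 219.8 TPM. RPS19 is the gene most often mutated in Diamond-Blackfan anaemia in humans. Rps15a was low per exon base but not in fragments, with 3077, 91 and 1545 counts, more than Rps23 had in replicates 1 and 3. Rps28 was low in both, with 438, 44 and 353 counts.

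The large subunit was led by Rpl36 with 4331, 3755 and 2706 TPM in replicates 1, 2 and 3. Rpl4, which lines the peptide exit tunnel, followed with 3860, 4142 and 2271 TPM. Rpl32 had 3906, 3882 and 2156 TPM. Rpl17, another tunnel protein, had 4170, 3345 and 1880 TPM, and Rpl23a, which sits at the tunnel exit where nascent chains meet the signal recognition particle, had 4269, 2760 and 2105 TPM. The means of these 5, from 3044 to 3597 TPM, lay closer together than their SDs of 824 to 1160 TPM, which include the shift shared by all members between libraries. Within libraries, Rpl36 was above Rpl17 and Rpl23a in all 3, while it changed places with Rpl4. The stalk proteins that recruit the elongation factors differed per exon base. Rplp1 averaged 2150 ± 650 TPM, Rplp0 1679 ± 548 TPM and Rplp2 489.5 ± 136 TPM (SD, n = 3 each). Their order depends on the gene length used, as given below. Rpl5 and Rpl11, the pair that binds the smallest ribosomal RNA and can hold the p53 ligase Mdm2, averaged 520 ± 229 and 391 ± 159 TPM (SD, n = 3 each).

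The lowest member was Rpl24, a protein of the subunit interface, with 25.1, 0 and 30.0 TPM from 54, 0 and 63 counts in replicates 1, 2 and 3. Its 0 allows up to 22.5 TPM at the depth of replicate 2 (3 counts, counting error only). Rpl13a, known in human myeloid cells for a second role in interferon-gamma-induced translational silencing, had 78.5, 58.6 and 47.4 TPM. Each shares exon bases on the same strand with another gene: Rpl24 shares 484 of its 1030 exon bases with Gm28037, on chromosome 16 (mm10) between 55966343 and 55970175, and Rpl13a shares 621 of 2114 with Gm45713, on chromosome 7 between 45125922 and 45127568. These stretches cover 71.5% of the main coding transcript of Rpl24 and 59.3% of that of Rpl13a. Both same-strand genes had 0 counts in all 3 libraries. The headers name no option to count a fragment that lies in more than 1 gene, and featureCounts leaves such fragments out by default. Another member, Rpl19, shares 36 bases with Gm11629, none of them in its main coding transcript, and averaged 1676 ± 466 TPM (SD, n = 3). Rpl19 also shares 80 bases with the microRNA gene Gm27597, all of them coding and 10.7% of its main coding transcript. In all, 26 members share exon bases with a same-strand gene, 3 of them with a gene other than a small RNA gene. The levels of Rpl24 and Rpl13a are therefore uncertain, and the part of the shared exons in them was not tested. The other low members of the large subunit were Rpl22l1 (mean 106 TPM), Rpl15 (147 TPM), both with opposite-strand overlap, and Rpl35a with 236, 198 and 112 TPM, which has none.

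TPM depends on the length each gene is given. The deposited exon length counts every annotated exon base, and for members its median of 1736.5 bp was well above the median of 757.5 bp of their protein-coding transcripts. The ratio of the lengths had a median of 2.25 among members and 1.24 among all protein-coding genes, and was at least 2 for 44 members. Across the 78 members, log2 TPM was lower where log2 exon length was higher (Pearson's r = -0.48, Spearman's rho = -0.54, a description over genes that share the 3 libraries and with length on both axes). Recomputed with coding-transcript lengths, a choice made after the data were seen, the median was 1264 TPM and 48 members reached 1000 TPM. Rps18 moved to rank 5 and Rps25 to rank 8, with 3342 and 3202 TPM, against 980 and 923 TPM with all exon bases. Rps3, Rps12 and the stalk protein Rplp2 stood at ranks 14, 10 and 21. With these lengths the stalk proteins lay close together, with means of 1677 TPM for Rplp2, 1596 TPM for Rplp1 and 1521 TPM for Rplp0. Rps23 dropped to rank 51 and Rpl17 to rank 19. Rps24 stayed first with 5470 TPM, and Rpl13a and Rpl24 stayed last with 125 and 21.1 TPM.

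**Figure D2:**
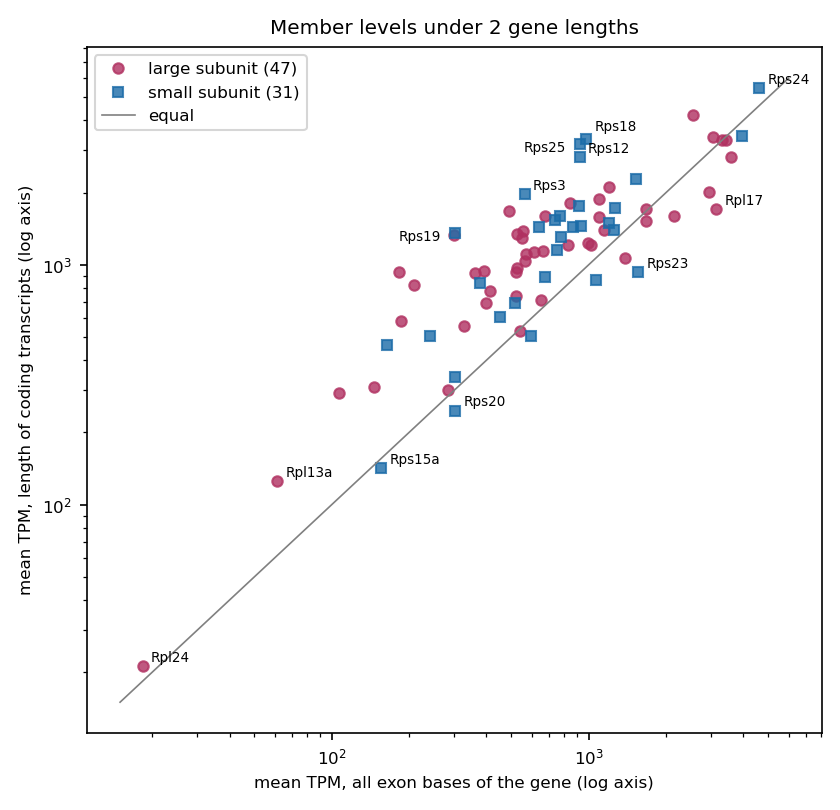
Mean TPM of each member over the 3 libraries with all exon bases as gene length (x axis, log) and with the length of its coding transcripts (y axis, log), circles for the large and squares for the small subunit, and a line of equal values. Above the line lie 64 of 78 members, Rps18, Rps25, Rps12 and Rps3 well above it, while Rps23, Rpl17, Rps15a and Rps20 lie below.

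Large-subunit genes had lower levels per gene than small-subunit genes. Their median was 689, 687 and 414 TPM in replicates 1, 2 and 3, against 945, 917 and 524 TPM for the small subunit. Large minus small, the medians of log2(TPM + 1) differed by -0.40 ± 0.06 (SD, n = 3) and had the same sign in all 3 libraries, where an exact sign-flip test cannot go below 0.25. It depended on the length: without length scaling it was 0.03, and with coding-transcript lengths -0.19. Summed over genes, the large subunit had 58898, 53512 and 33016 TPM, against 35767, 35134 and 20097 TPM for the small subunit, a ratio of 1.65, 1.52 and 1.64. The mean ratio of 1.60 ± 0.07 (SD, n = 3) is close to the ratio of 47 to 31 genes. The range among genes was wider in the large subunit, 196-fold against 29.6-fold in the small subunit. Rpl24 and Rpl13a, whose levels are uncertain, make up its lower tail. The quartiles lay 2.97-fold apart in the large and 2.11-fold apart in the small subunit. With coding-transcript lengths the order of these quartile folds turned, to 2.05 in the large and 2.28 in the small subunit.

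Members with opposite-strand overlap were about as high as those without. Their median was 812, 865 and 538 TPM in replicates 1, 2 and 3, against 777, 758 and 455 TPM for members without overlap, a difference of 0.16 ± 0.09 on the log2(TPM + 1) scale (SD, n = 3). With means over genes in place of medians the sign turned to -0.11. No split by overlap or subunit was tested across genes, since genes of 1 library are not replicates.

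The 17 overlapped members face 19 opposite-strand genes. The shared stretch ranged from 14 to 953 bases, with a median of 159. In 4 pairs it reaches into the coding bases of the member's main transcript, and in 9 pairs it holds no base of that transcript. Coding stretches of 3 such pairs are printed here because these are pairs in which the facing gene had most of the counts. Each is the longest unbroken coding run shared with an exon of the partner, in capitals, with up to 10 flanking coding bases of the same exon in lower case, read 5′ to 3′ on the member's strand from the GENCODE release 21 transcripts (GRCm38).
Rpl22l1 facing Gm33051, chr3:28807195-28807328, plus strand: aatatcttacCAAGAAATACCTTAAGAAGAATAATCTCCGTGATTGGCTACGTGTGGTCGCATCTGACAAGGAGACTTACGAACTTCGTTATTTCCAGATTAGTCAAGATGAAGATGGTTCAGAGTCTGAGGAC
Rpl23a facing Tlcd1, chr11:78181417-78181593, minus strand: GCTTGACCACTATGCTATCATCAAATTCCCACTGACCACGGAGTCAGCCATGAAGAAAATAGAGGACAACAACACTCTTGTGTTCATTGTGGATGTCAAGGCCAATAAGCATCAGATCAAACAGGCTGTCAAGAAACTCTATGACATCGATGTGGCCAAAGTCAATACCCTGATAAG
Rpl35 facing Wdr38, chr2:39001619-39001710, minus strand: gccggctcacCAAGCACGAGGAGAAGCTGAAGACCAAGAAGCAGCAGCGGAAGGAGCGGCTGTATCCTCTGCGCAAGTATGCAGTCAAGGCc

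In all 4 pairs with shared coding bases the partner held the larger part of the pair's counts in every library, between 77.9% and 94.3%. Of the 15 pairs without shared coding bases, only Rpl15 with Nkiras1 showed this. Shared coding bases in total were 259 in Rpl23a, 124 in Rpl22l1 and 105 in Rpl35.

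Per exon base and by limma's moderated test over 3070 opposite-strand gene pairs of the genome, the member was higher in 14 of the 19 pairs and the partner in 3 (Benjamini-Hochberg adjusted p under 0.05). Across all pairs, 69.6% passed in either direction, so a passing pair is the usual case. Rpl22l1 had 436, 31 and 378 counts in replicates 1, 2 and 3, while the antisense gene Gm33051 had 2130, 465 and 5202. Rpl22l1 has 1989 exon bases and Gm33051 274. The mean log2 ratio, member over partner, was -6.18 ± 0.89 (SD, n = 3, limma adjusted p = 1.28e-05). Gm33051 was above Rpl22l1 in every library.

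Rpl35 faces 2 genes. It had 1787, 93 and 904 counts in replicates 1, 2 and 3, while Wdr38, which codes for a WD-repeat protein, had 9051, 701 and 13645 counts and shares 821 bases, 66.2% of the exon bases of Rpl35. The log2 ratio was -1.84 ± 0.80 (SD, n = 3, limma adjusted p = 0.021). This call was lost without replicate 1 (limma adjusted p = 0.058) and without replicate 3 (limma adjusted p = 0.12), and also with no filter on low counts (limma adjusted p = 0.055). On the other side, Arpc5l, a subunit of the actin-nucleating Arp2/3 complex, shares 62 bases and had 333, 7 and 177 counts, a log2 ratio of 4.66 ± 0.73 (SD, n = 3, limma adjusted p = 6.12e-05). Rpl35 was thus below one neighbour and above the other in all 3 libraries.

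Both remaining pairs did not pass. Rpl23a had 7561, 302 and 3630 counts in replicates 1, 2 and 3, while Tlcd1, a regulator of membrane lipid composition, had 26618, 1866 and 29725. Per base the log2 ratio was 0.75, -0.06 and -0.47, so its sign differed between libraries, with a mean of 0.07 and a 95% interval from -1.27 to 1.42 (limma adjusted p = 0.93). Rpl15 had 1015, 40 and 528 counts and Nkiras1, an inhibitor of NF-kappaB signalling, 2703, 254 and 3913. Their log2 ratio was -1.14 with a 95% interval from -2.51 to 0.23 (limma adjusted p = 0.12).

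Of the 14 pairs with the member higher, Rpl5 with Fam69a was the closest, at a log2 ratio of 1.84 ± 0.73 (SD, n = 3, limma adjusted p = 0.020), and was lost without replicate 1 (limma adjusted p = 0.16). They share 953 bases of the mRNA of Rpl5, none of them coding, and Rpl5 had 4350, 377 and 2284 counts, while Fam69a had 588, 67 and 827. Rpl32 had 7866, 483 and 4229 counts in replicates 1, 2 and 3, and Cand2, which inhibits cullin ligases, 2455, 368 and 6032, so in replicate 3 the partner held 58.8% of the pair's counts. Rpl31 (1856, 182 and 1096 counts) faced Tbc1d8 at 497, 70 and 649 counts. Rpl18 (3361, 133 and 2031) faced the sphingosine kinase gene Sphk2 at 367, 8 and 362, and Rpl28 (3947, 218 and 2089) faced the ubiquitin-conjugating enzyme gene Ube2s at 695, 28 and 896. In these the partner stayed below the member in every library, except for Cand2 in replicate 3.

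Small-subunit members lay further above their partners. Rps25 (5801, 359 and 3864 counts in replicates 1, 2 and 3) faced Ccdc84 at 546, 73 and 1287 and the vesicle-tethering gene Trappc4 at 195, 11 and 140. Rps18 (5666, 354 and 3819) faced Vps52 at 161, 8 and 94, Rps28 (438, 44 and 353) faced Kank3 at 58, 2 and 34, and Rps27a (3348, 249 and 2159), which encodes a fusion of ubiquitin with the ribosomal protein, faced Clhc1 at 30, 5 and 26. In 3 pairs the partner had no count in replicate 2. Rps10 (1857, 99 and 1085) faced Gm15420 and Rps2 (6410, 304 and 3180) faced Snhg9, each partner at 2, 0 and 1 counts, and Rpl12 (8200, 402 and 4212) faced Lrsam1 at 54, 0 and 31.

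The balance within pairs moved with the library. The log2 ratio of member over partner was lower in replicate 3 than in replicate 1 in 17 of 19 pairs, with a median difference of -1.14. The partner's share of counts was highest in replicate 3 in 14 pairs. The same counts over all 3070 opposite-strand pairs are not given here, so these do not set the members' pairs apart. Overlapped genes as a whole also took their largest share of counts in replicate 3. The part of the strand setting or of the library in these ratios was not tested.

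**Figure D3:**
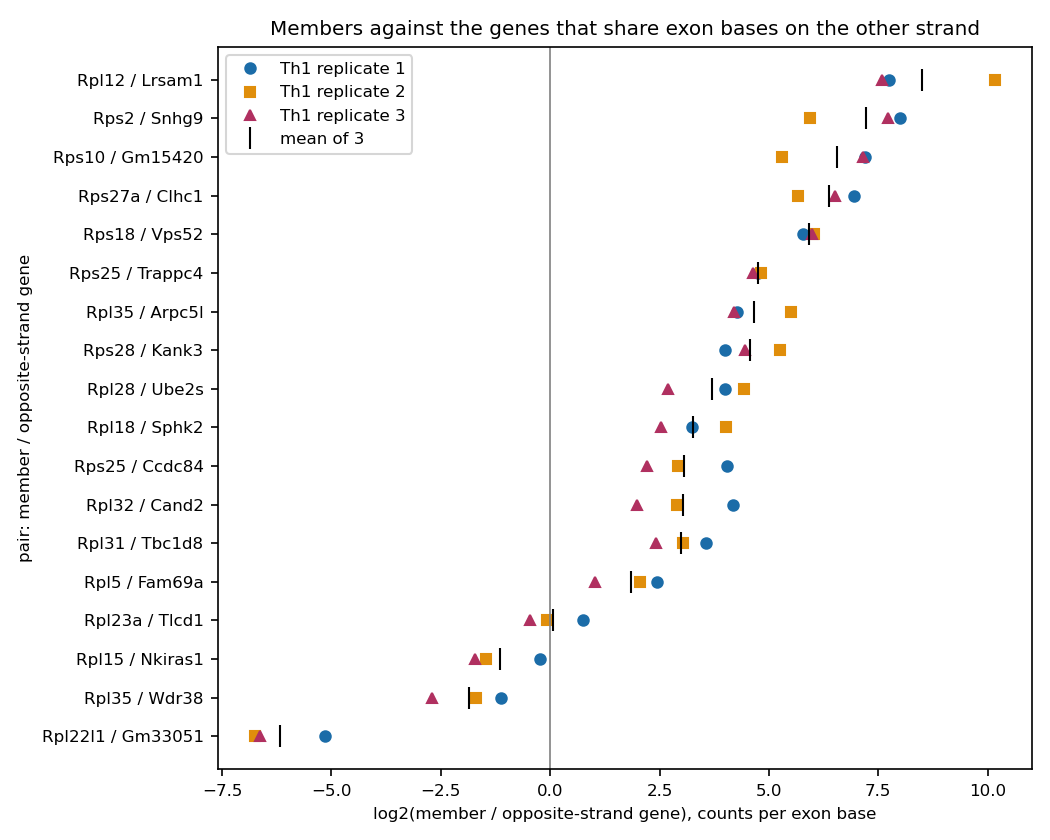
Log2 ratio of member over opposite-strand gene, in counts per exon base with 0.5 added to each count, for 18 of the 19 pairs (rows) in replicates 1, 2 and 3 (symbols) with the mean as a vertical tick. Rpl22l1 and Rpl35 (with Wdr38) lie left of 0 in every library, and replicate 3 lies left of replicate 1 in 16 of the rows drawn.

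A smaller share of members than of all genes differed between libraries. By a chi-square test of the counts on TMM-scaled library sizes (adjusted p under 0.05 and at least 2-fold between the highest and the lowest library), 2 of 78 members were called, 2.56%, against 32.2% of the 11595 genes tested. At a mean count of at least 100, which all but 1 member reached, 2 of 77 were called, against 34.1% of genes. On genes without opposite-strand overlap, scaled among themselves, 4 of 61 members (6.56%) were called, against 17.3% of genes. The median ratio of the highest to the lowest library was 1.405 for members and 1.78 for all genes tested. Without the 2-fold minimum, 71 of 78 members (91.0%) passed, against 55.5% of genes. This test holds counting error only and weighs deep genes heavily, so it compares these libraries and not conditions.

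The 2 members called were of the small subunit. Rps29, a zinc-binding protein, had 1591, 45 and 603 counts in replicates 1, 2 and 3, a 2.14-fold difference between replicate 1, the highest after scaling, and replicate 2, the lowest. Rps15a differed 2.04-fold between the same libraries. Neither was called without replicate 1 or without replicate 2. At the other end, Rps14 and Rpl13 differed only 1.04-fold, with adjusted p of 0.48 and 0.68. The order of members was much the same in each library: their log2 levels correlated between replicates 1 and 3 with r = 0.98 across the 78 genes, and with r = 0.93 and 0.92 for the pairs that include replicate 2 (a description, over genes in 1 pair of libraries each).

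Where the members stood in replicate 3 depended on the scaling. In TPM, 75 of 78 members (96.2%) were lowest in replicate 3. So were 51.9% of protein-coding genes at 1 TPM or more, and 64.2% of protein-coding genes with a mean count of at least 100. Replicate 3 minus the mean of replicates 1 and 2 had a median log2 difference of -0.76 over 77 members. These had a count in every library (all but Rpl24). The 9685 tested genes with a count in every library stood at -0.47 in the median. Scaled by TMM the members were at -0.31 and all genes at -0.02. With TMM fitted on genes without opposite-strand overlap, the members were at -0.09, genes without overlap at 0.00 and overlapped genes at 0.69, and only 34 of 78 members were lowest in replicate 3. The 17 overlapped members, at -0.06 on that scale, stood with the other 60 members at -0.10 and not with the overlapped genes. A lower level of members in replicate 3 and the larger share of overlapped genes in that library cannot be told apart.

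**Figure D4:**
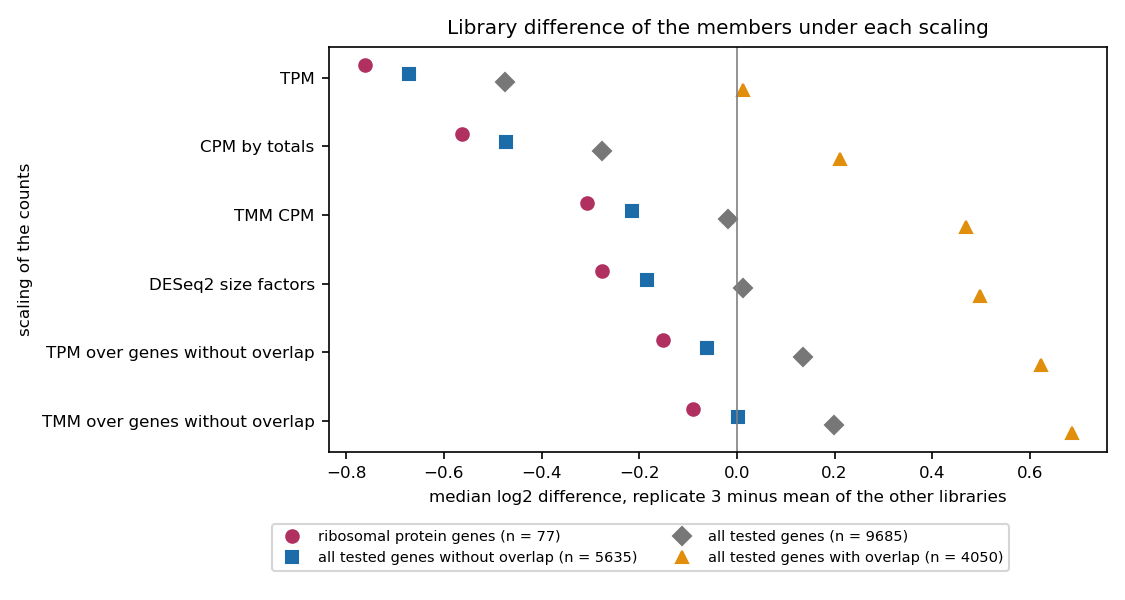
Median log2 difference of replicate 3 from the mean of replicates 1 and 2 (x axis) under 6 scalings (rows), for 77 members, 5635 genes without opposite-strand overlap, all 9685 genes and 4050 genes with overlap, each tested and with a count in every library. Members lie next to the genes without overlap in every row, from -0.76 in TPM to -0.09 under TMM over genes without overlap, and overlapped genes lie to the right.

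Paralogue pairs differed in balance. Rpl22, required for alpha-beta T-cell development in mice, had 1825, 143 and 1029 counts in replicates 1, 2 and 3, and its paralogue Rpl22l1, whose expression increases in mice that lack Rpl22, 436, 31 and 378. Their log2 ratio per exon base was 1.35 ± 0.40 (SD, n = 3). With coding-transcript lengths, 2048 bp for Rpl22 and 538.5 bp for Rpl22l1, against 2911 and 1989 exon bases, it was -0.02, so the order of this pair depends on the length and Rpl22l1 is also overlapped. Rps27 reached 1516, 114 and 799 counts and Rps27l, a p53 target in human cells, 577, 38 and 348, a log2 ratio of 1.04 ± 0.19 (SD, n = 3). Rpl36a (2164, 142 and 996 counts) lay 1.66 ± 0.09 above Rpl36al (525, 36 and 274), and Rpl7 (7012, 472 and 3817 counts) lay 3.58 ± 0.21 above Rpl7l1 (608, 32 and 334) on the log2 scale (SD, n = 3 each). With coding-transcript lengths these log2 ratios were larger, 2.03 for Rps27 over Rps27l, 2.60 for Rpl36a over Rpl36al and 4.38 for Rpl7 over Rpl7l1. Coding sequences of these pairs were 72.7% (Rpl22), 76.2% (Rps27), 87.7% (Rpl36a) and 64.8% (Rpl7) identical over aligned bases.

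The tissue-restricted copies were at the counting floor. Rpl3 had counts of 5339, 277 and 3121 and Rpl3l, the heart and skeletal muscle form, of 1, 0 and 2, a per-base ratio of 1534 with a 95% counting interval from 525 to 7441. Rpl10l, a testis form, had none, and Rpl10 was at least 721-fold higher (3 counts over the group). Rpl39l, also known from testis, had 6, 0 and 1 counts, and Rpl39 was 161-fold higher with an interval from 78.0 to 401.

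Genes of the same pathway outside the name rule behaved in different ways. Rps3a1 averaged 1815 ± 511 TPM, Fau 978 ± 264 TPM and the scaffold protein gene Rack1, which is overlapped, 481 ± 129 TPM (SD, n = 3 each). Of 14 genes outside the ribosome with TOP mRNAs, such as Eef1a1, Eef2, Npm1 and Tpt1, all reached 1 TPM, with a median of 509 TPM. In TPM, 13 of them were lowest in replicate 3, against 51.9% of protein-coding genes at 1 TPM or more. Between libraries, 1 of them was called. The 67 translation initiation and elongation factor genes had a median of 76.6 TPM over all 67, and 11 of the 62 tested (17.7%) were called between libraries. Mitochondrial ribosomal protein genes, also 78 in number, had a median of 32.9 TPM over all 78, and 27 of the 77 tested (35.1%) were called, while 2 of 78 cytosolic members were and the background was 32.2%. The difference between these lists was not tested.

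Start sites were examined for pyrimidine runs like those of TOP mRNAs and for promoter motifs. Their part in the differences between libraries was not tested. RefSeq promoters (GRCm38.p6, 250 bases before to 50 after the start) were held for 58 members, in 69 windows. Pyrimidine runs that open with C were searched on the gene's strand from 10 bases before to 15 after the start. CTTTC occurred in 20.3% of members' windows and 3.11% of the 32851 windows of all genes. CTTCC occurred in 18.8% of members' windows and 5.41% of all, and CTCTT in 17.4% and 3.16%. CCTTT occurred in 11.6% and 2.67%, and CTTTT in 7.25% and 2.57%. These runs can overlap each other, and 39.1% of members' windows held at least 1 of them, against 13.4% of all windows. The first base at the annotated start was C in 29.0% of members' windows and 16.3% of all. CCGGAAG, the core bound by ETS-family factors, occurred on either strand in 36.2% of members' windows and 8.86% of all. AAGATGG, a YY1-type core, occurred in 15.9% of members' windows and 6.34% of all, while TATAAA occurred in 10.1% and 13.6%. Within the members, the medians with and without a run lay close together: 26 members with a run had a median of 591 TPM, and 32 without it 564 TPM. The windows of the 4 highest and 4 lowest members with a single promoter are printed to show that range, from 35 bases before to 15 after the start on the gene's strand, with a pyrimidine run in capitals where found.
Rps15, chr10:80292396-80292445, plus strand: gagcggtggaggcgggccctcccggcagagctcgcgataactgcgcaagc
Rpl4, chr9:64173352-64173401, plus strand: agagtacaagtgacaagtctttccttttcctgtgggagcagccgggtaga
Rpl41, chr10:128549154-128549203, minus strand: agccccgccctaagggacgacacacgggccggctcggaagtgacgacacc
Rplp0, chr5:115559432-115559481, plus strand: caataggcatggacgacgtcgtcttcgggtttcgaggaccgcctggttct
Rpl15, chr14:18270972-18271021, minus strand: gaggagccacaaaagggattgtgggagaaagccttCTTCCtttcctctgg
Rpl22l1, chr3:28805473-28805522, plus strand: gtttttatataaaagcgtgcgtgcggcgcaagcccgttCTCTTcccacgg
Rpl13a, chr7:45128731-45128780, minus strand: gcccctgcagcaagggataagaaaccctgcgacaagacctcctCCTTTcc
Rpl24, chr16:55966240-55966289, plus strand: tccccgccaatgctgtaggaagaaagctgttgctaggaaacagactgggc

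Among the windows printed, none of the 4 highest held a run at the annotated start, though Rpl4 has pyrimidines just upstream of it. Of the 4 lowest printed, 3 did. A match is a description of letters, and annotated starts may lie some bases from the true ones.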

How the data were processed

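The deposited values were raw fragment counts per gene, which the authors produced, per the file headers, by featureCounts (release 1.4.6-p4): both ends mapped, exons summed by gene, GENCODE mouse release 13 on mm10, strand setting 1. Aligner versions are not given in the sources used here. Per the labels the assay is total RNA-seq, yet their linked protocol names polyadenylated RNA. Unused value columns numbered 0.

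Names came from GENCODE release 21, matching 50376 of 50600 genes. TPM used the deposited exon lengths. Libraries were compared gene by gene with a chi-square test on TMM sizes (edgeR 4.0.16; mean count of at least 10; Benjamini-Hochberg), pairs with limma 3.58.1 after adding 0.5 to each count. Both were fitted over all genes or pairs and tested on simulated data. The 3 libraries share a donor record, so the SDs and limma's p-values measure the spread between these libraries, which may be technical. Intervals and floors cover counting error only.

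Full values were given for the 5 highest and 5 lowest members of each subunit, overlapped members, paralogues and members called between libraries. Members and lists were chosen with earlier results of these data known. Alternatives covered scaling (DESeq2 1.42.0 size factors, totals), filters, pseudocounts, lengths, overlap and each replicate left out. A few genes of these lists are not reported here.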

Additional observations from a re-analysis of the deposited data

How the results depend on the processing

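Of the alternatives to the main comparisons, 64 values kept their direction and stayed near in size, and 19 did not. Values counted as kept could still differ somewhat. Pairs with the partner higher went from 3 to 2 with no filter on low counts, and pairs with the member higher from 14 to 12 without length scaling. The count of members called between libraries was 2, against 32.2% of all genes tested. It became 71 with no minimum ratio, against 55.5% of genes. On genes without opposite-strand overlap it became 4, against 17.3% of those genes. It was 1 with DESeq2 size factors, 7 with library totals, 29 with a minimum ratio of 1.5, and 0 to 2 with a replicate left out. The share of all genes under these last settings is not given here, so their counts do not set members apart. Pairs with the member higher numbered 8 of 13 at 100 or more shared bases, by construction. On counts not divided by length, pairs with the partner higher numbered 5 (Rpl15 and Rpl23a joined). Pairs with the member higher then numbered 12, without Rpl31 with Tbc1d8 and Rpl32 with Cand2. The share of all pairs that passed under these settings is not given here. The median level on the log2 scale was 9.37, 10.93 when scaled over genes without overlap and 10.26 with coding-transcript lengths. The large minus small difference was 0.031 in CPM, -0.19 as a mean, -0.25 without overlapped members and -0.19 with coding-transcript lengths. The overlap difference was -0.11 as a mean. The summed ratio of the subunits was 1.34 with coding-transcript lengths, and the members' share was 10.4% among genes without overlap and 7.88% in TPM. Among paralogues, the log2 ratio of Rpl22 over Rpl22l1 turned to -0.022 with coding-transcript lengths. The coding-transcript length was added after the data were seen. Moves under another length, ratio minimum or set of genes follow from that choice, and the cause of the other moves was not tested. The shallow replicate 2 limits members under 100 counts. No paired analysis was possible because there is 1 group.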

Other observations

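Ribosomal protein genes often carry small nucleolar RNAs, which guide modification of ribosomal RNA, in their introns. Of the members, 29 (20 large, 9 small) held 56 annotated small nucleolar RNA genes on their own strand, and these had 98 counts in all 3 libraries together. In 30 cases a small nucleolar RNA gene shares bases with annotated exons of the member. Fragments that lie in both genes are left out by default, and the part of this in the 98 counts was not tested. The median level was 598 TPM for host members and 739 TPM for the other 49. With coding-transcript lengths it was 1231 TPM for host members and 1307 TPM for the others.

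Pseudogenes named after a member were annotated for 58 members, 274 in number. They had 2375 counts in all, against 469441 for the members. Of the 2375, 1334 came from 1 pseudogene, named after Rpl14. Fragments that map to several places are not counted by default, and how many members' fragments that removes was not measured here.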
